A study of Mus musculus with 6 samples.

Results

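The 10 genes described here encode proteins that modify or fold collagen chains inside the endoplasmic reticulum (ER): the prolyl 4-hydroxylase subunits P4ha1, P4ha2 and P4ha3, the lysyl hydroxylases Plod1, Plod2 and Plod3, the prolyl 3-hydroxylase Lepre1 and its partner Crtap, the collagen chaperone HSP47 (gene Serpinh1) and the prolyl isomerase Fkbp10. They were chosen by gene symbol, and all 10 were found among the 17385 genes of the authors' deposited table, which writes P3h1 under its older name Lepre1. Messenger RNA of hippocampus was sequenced from C57BL/6 mice aged 2 months, with 3 control and 3 sATF6-KI samples. The controls were Emx1-Cre mice, whose recombinase acts in the dorsal forebrain lineage, including the excitatory neurons of the hippocampus. The sATF6-KI mice carried Emx1-Cre as well, together with a Rosa26 allele for short-form ATF6 joined to MER, a modified hormone-binding part of the estrogen receptor. Whether a ligand of MER was given is not given in the labels. The question was what this short form of ATF6, a factor of the response to unfolded protein in the ER, does to gene expression.

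Collagen chains enter the ER singly and are modified before and while they wind into a triple helix. Prolyl 4-hydroxylase, a tetramer of alpha subunits (P4HA) and beta subunits (protein disulfide isomerase, gene P4hb), makes the 4-hydroxyproline that holds the helix together at body temperature. Lysyl hydroxylases prepare the sites of sugars and of crosslinks. A complex of prolyl 3-hydroxylase 1, CRTAP and cyclophilin B (gene Ppib) modifies and folds the chains, and HSP47 binds the finished helix until it leaves the ER. In brain, fibrillar collagen belongs mainly to meninges and vessel walls, while neurons make few collagens, some of them membrane-bound.

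In sATF6-KI hippocampus 1 of the 10 genes, Serpinh1, was higher than in control, and none was lower, at the authors' adjusted p under 0.05. By the authors' deposited table, 5.34% of all genes were called at that threshold, 3.41% higher and 1.93% lower. Serpinh1 was 1.57-fold higher by the authors' deposited table (95% interval 1.40 to 1.76). The other 9 lay between 0.882 and 1.20 times control by the authors' deposited table, 4 of them above and 5 below it. The 10 genes had a median log2 fold change of 0.05 by the authors' deposited table, against 0.00499 for all genes. By contrast, P4hb and Ppib, whose products are partners of prolyl 4-hydroxylase and prolyl 3-hydroxylase 1, were 2.03-fold and 1.71-fold higher by the authors' deposited table.

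All fold changes and p-values come from the authors' DESeq2 comparison, and ± marks the Wald standard error on the log2 scale. The 6 columns of values per library have names that match no sample label and were not used, so no value per sample is given and the depth per sample is unknown here. As a check of the transgene, Esr1 was 68.0-fold and Atf6 1.43-fold higher by the authors' deposited table. Transcripts of hippocampal excitatory neurons were abundant, with a baseMean (the authors' mean normalized expression over all libraries) of 159768 for Camk2a and 54530 for Slc17a7 by the authors' deposited table. Ttr, among the most abundant transcripts of choroid plexus, had a baseMean of 131970 by the authors' deposited table.

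ATF6 is known to bind the ER stress response element (ERSE), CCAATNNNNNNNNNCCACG, with the factor NF-Y on its CCAAT part. Promoters are shown because Serpinh1 was called and P4ha1 was not, while P4hb, which pairs with P4ha1 in the enzyme, was called. Each stretch is the 250 bases before the transcript start in RefSeq on GRCm38.p6, 5′ to 3′ on the strand of the gene, with every CCACG or CCAAT of either strand in capitals. Matches of CCACG on the other strand read CGTGG.
Serpinh1, chr7:99353240-99353489, minus strand: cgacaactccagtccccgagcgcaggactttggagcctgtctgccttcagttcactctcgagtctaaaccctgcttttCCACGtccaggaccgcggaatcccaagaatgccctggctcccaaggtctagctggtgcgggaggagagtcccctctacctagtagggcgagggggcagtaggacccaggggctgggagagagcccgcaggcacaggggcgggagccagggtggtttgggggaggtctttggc
P4ha1, chr10:59323046-59323295, plus strand: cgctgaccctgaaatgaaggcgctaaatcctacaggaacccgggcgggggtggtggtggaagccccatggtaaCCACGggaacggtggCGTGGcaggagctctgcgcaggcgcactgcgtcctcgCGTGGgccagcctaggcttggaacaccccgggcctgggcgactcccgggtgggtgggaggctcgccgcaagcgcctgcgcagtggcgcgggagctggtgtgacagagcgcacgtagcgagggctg
P4hb, chr11:120573254-120573503, minus strand: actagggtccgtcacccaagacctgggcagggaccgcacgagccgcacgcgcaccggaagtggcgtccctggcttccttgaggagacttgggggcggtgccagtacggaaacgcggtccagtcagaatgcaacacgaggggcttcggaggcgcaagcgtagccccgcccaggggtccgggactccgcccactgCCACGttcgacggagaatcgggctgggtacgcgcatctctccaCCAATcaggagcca

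For comparison, the ERSE matches of 3 ER chaperone genes that also fold glycoproteins or procollagen are shown, each 5′ to 3′ on the strand that reads CCAAT first, with the CCAAT and CCACG parts in capitals.
Hspa5, chr2:34772025-34772043, plus strand: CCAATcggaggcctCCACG
Calr, chr8:84847075-84847093, plus strand: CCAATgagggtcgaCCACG
Canx, chr11:50325800-50325818, minus strand: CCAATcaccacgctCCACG

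The search covered windows from 250 bases before to 50 bases after the start, on both strands. RefSeq windows were matched for 8 of the 10 genes and for 11 of 15 other collagen folding and modifying genes of the ER. None of the 8 held an ERSE. Of the 11, Hspa5, Calr and Canx held it, while P4hb, Pdia3, Ppib, Fkbp7, Fkbp14 and Leprel2, also called higher, did not. The letters of the ERSE were found in 39 of 32851 promoter windows, which is 0.119%. The related element ERSE-II, in which the same parts lie 1 base apart with the first inverted, was in none of the 8 and in 0.0365% of all windows. The core TGACGTG of the unfolded protein response element was in none of the 8 and in 2.01% of all windows. In the window of Serpinh1 CCACG stood from 172 to 168 bases before the start, and again from 19 to 23 bases after it, with no CCAAT. Alone, the CCACG part is common, in 32.8% of all windows, as is CCAAT, in 37.4%, and either ERSE or ERSE-II holds CCACG by construction. The heat shock element, searched because Serpinh1 is also a known heat shock gene, was spelled GAANNTTCNNGAA, which reads TTCNNGAANNTTC on the other strand. It was in no window of the 8 genes and in 0.603% of all windows. Over the 11800 listed genes with a window, 12 of 443 called higher held an ERSE (2.71%), against 8 of 11106 not called (0.072%) and 0 of 251 called lower. A match is a description of letters and shows no binding. Only exact spellings within these windows were sought, so a missing match does not show that a gene lacks the element.

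**Figure D1:**
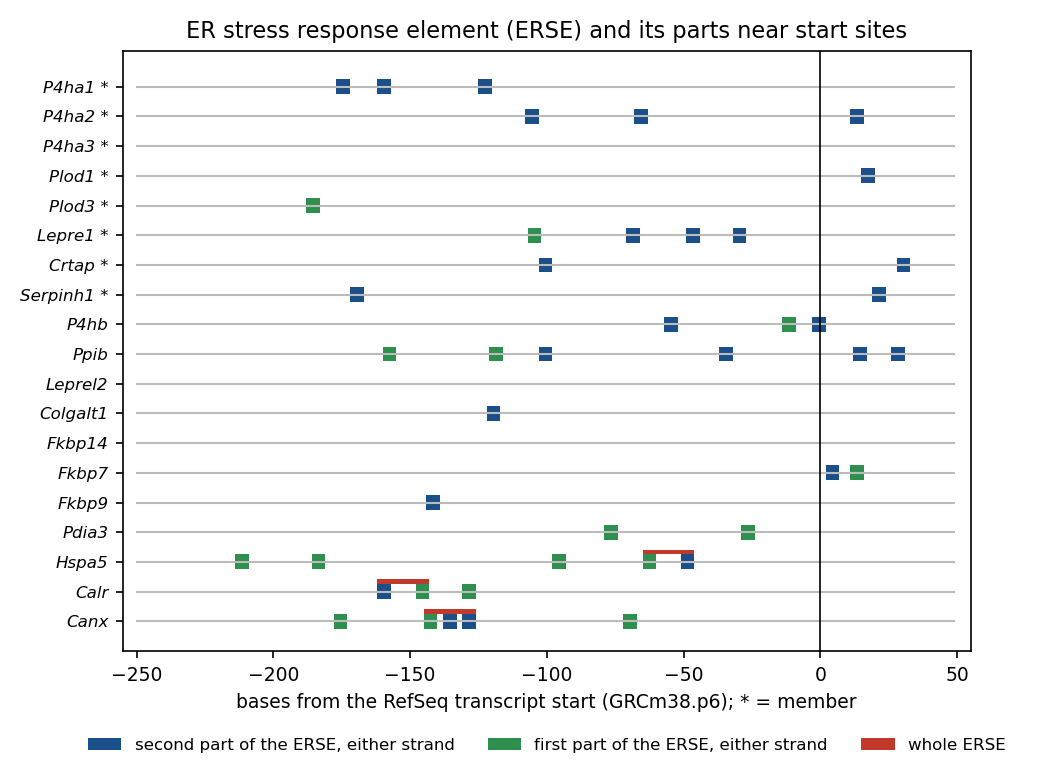
Matches of the ERSE (red) and of its CCAAT (green) and CCACG (blue) parts on either strand in the first RefSeq window of 8 collagen-modifying genes (starred) and 11 other collagen folding and modifying genes of the ER, by bases from the transcript start. The whole element appears in 3 genes, Hspa5, Calr and Canx, and in none of the starred 8.

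Serpinh1 encodes HSP47, a serpin without protease inhibitor activity that binds folded procollagen and returns to the ER from the Golgi. It lies on chromosome 7 from 99345376 to 99353239 (GRCm38, minus strand). Its log2 fold change was 0.65 ± 0.08 by the authors' deposited table, with the authors' DESeq2 adjusted p = 2.96e-12 and the 99th smallest p of 17385. No other gene of GENCODE M21 overlaps it. The nearest gene, Map6, 8239 bases away on the opposite strand, was at -0.03 ± 0.07 on the log2 scale by the authors' deposited table. Gdpd5, 28175 bases away, was at 0.25 ± 0.10 by the authors' deposited table, with an adjusted p = 0.123 by DESeq2.

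The alpha subunits of prolyl 4-hydroxylase carry the active site and the binding site for the peptide. P4ha1 (chromosome 10 from 59323296 to 59373304, plus strand, GRCm38) had a log2 fold change of -0.08 ± 0.08 by the authors' deposited table, with a 95% interval of 0.845 to 1.06 times control. P4ha2 (chromosome 11 from 54100095 to 54131665, plus strand, GRCm38) was at 0.14 ± 0.10 on the log2 scale by the authors' deposited table, an interval of 0.959 to 1.27 times control. P4ha3 (chromosome 7 from 100285520 to 100319699, plus strand, GRCm38) was at -0.03 ± 0.23 by the authors' deposited table. It was the least expressed of the 10, with a baseMean of 93.4 by the authors' deposited table, and its interval, 0.712 to 1.34 times control, was the widest. DESeq2 adjusted p-values were 0.737 for P4ha1, 0.573 for P4ha2 and 0.976 for P4ha3 by the authors' deposited table.

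The beta subunit did differ. P4hb, which also works alone as a disulfide isomerase on many ER clients, had a log2 fold change of 1.02 ± 0.07 by the authors' deposited table (95% interval 1.84-fold to 2.25-fold higher, DESeq2 adjusted p = 1.03e-40). The interval of P4hb lies above those of all 3 alpha subunits. These genes were measured in the same libraries, and the difference between them was not tested.

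Levels of different genes were set side by side per length, as baseMean per kb of annotated exon (GENCODE M21) over both groups together, with no spread. The length joins the exons of all annotated transcripts of a gene, and can exceed that of the transcripts expressed here. Shares, ratios between genes and ranks depend on it. P4hb stood at 2396 per kb and the 3 alpha subunits at 605.3 per kb in sum, a ratio of 3.96 over both groups together. The levels that the pooled mean and the fold change imply for each group, with 3 libraries in both, put this ratio at about 2.57 in control and 5.40 in sATF6-KI. P4ha1 made up 81.4% of the alpha sum per length, P4ha2 13.7% and P4ha3 4.92%. Over both groups P4ha1 stood at 492.5 per kb, Serpinh1 at 418.7 and Plod3 at 235.5. The implied order of the first pair turned with the group, with no spread to judge it. The implied levels were 506.4 per kb for P4ha1 and 326.3 for Serpinh1 in control, and 478.6 and 511.1 in sATF6-KI. By implied levels Plod1 and Crtap also changed places, as did Fkbp10 and Lepre1, none of them called. Plod1 stood at 135.05 per kb, Crtap at 124.8, Fkbp10 at 91.6, Lepre1 at 88.0, P4ha2 at 83.0, Plod2 at 73.5 and P4ha3 at 29.8. P4ha1, Serpinh1 and Plod3 were the 3 above the median of all genes with a length, 150.4 per kb. Without a spread over samples, neighbours in this order cannot be said to differ.

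**Figure D2:**
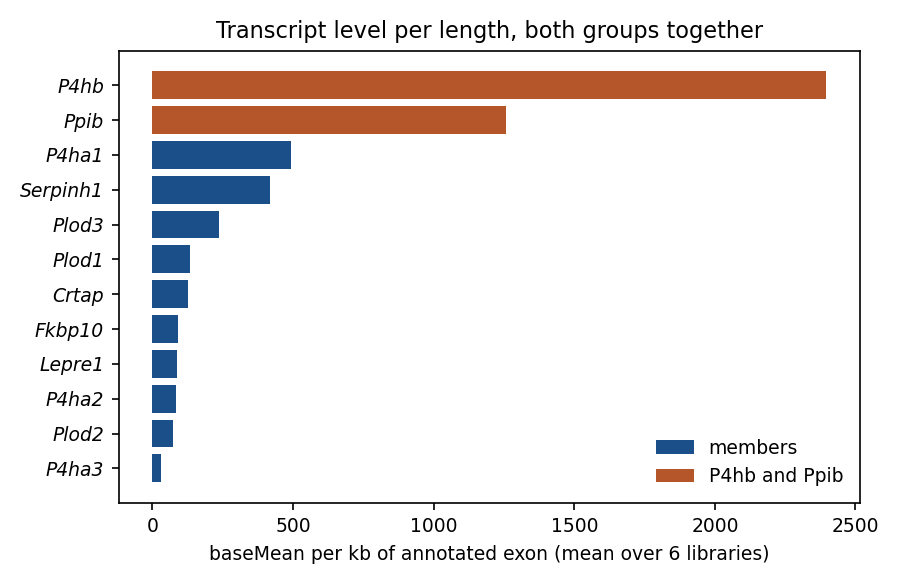
Mean normalized expression per kb of annotated exon over all 6 libraries, as bars from 0 with no error, for the 10 collagen-modifying genes (blue) and for P4hb and Ppib (orange). P4hb at 2396 per kb and Ppib at 1257 per kb stand above all 10. P4ha1 at 492.5 and Serpinh1 at 418.7 come next, and their implied order differs between the groups, as for other neighbouring pairs.

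Lysyl hydroxylases differ in the lysines they act on, LH2 (gene Plod2) in the telopeptides that crosslink and LH1 (gene Plod1) in the helix. LH3 (gene Plod3) also adds glucose to the galactose already on hydroxylysine. Plod1 (chromosome 4 from 147909753 to 147936767, minus strand, GRCm38) was at -0.18 ± 0.09 on the log2 scale by the authors' deposited table, an interval of 0.783 to 0.994 times control. Its unadjusted p was 0.0397 and its DESeq2 adjusted p = 0.279 by the authors' deposited table. It did not pass the threshold. Plod2 (chromosome 9 from 92542223 to 92608428, plus strand, GRCm38) was at 0.15 ± 0.11 on the log2 scale by the authors' deposited table, and its interval was 0.950 to 1.29 times control. Plod3 (chromosome 5 from 136987019 to 136996648, plus strand, GRCm38) was at -0.05 ± 0.08 by the authors' deposited table, and its interval of 0.868 to 1.08 times control was the tightest of the 3. DESeq2 adjusted p-values were 0.605 for Plod2 and 0.860 for Plod3 by the authors' deposited table. The 3 estimates thus had no common sign, and none was called.

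The prolyl 3-hydroxylase complex gave the 2 highest estimates after Serpinh1, and neither passed. Lepre1 (named P3h1 in GENCODE M21, chromosome 4 from 119232915 to 119248975, plus strand, GRCm38), the enzyme itself, was at 0.26 ± 0.12 on the log2 scale by the authors' deposited table, an interval of 1.01 to 1.41 times control. Its unadjusted p was 0.0329 and its DESeq2 adjusted p = 0.254 by the authors' deposited table. Crtap (chromosome 9 from 114375134 to 114390675, minus strand, GRCm38), a helper protein without enzyme activity that is needed for the complex, was at 0.22 ± 0.15 on the log2 scale by the authors' deposited table (DESeq2 adjusted p = 0.525). Its interval was 0.951 to 1.43 times control. Lepre1 starts 203 bases from AU022252, on the opposite strand, which was at 0.19 ± 0.07 on the log2 scale by the authors' deposited table (DESeq2 adjusted p = 0.0904). At an unadjusted p under 0.05, 3 of the 10 genes passed, Serpinh1 and Lepre1 above control and Plod1 below it, against 15.8% of all genes.

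Cyclophilin B, the third protein of that complex and an ER prolyl isomerase with many other clients, did pass. Ppib had a log2 fold change of 0.77 ± 0.07 by the authors' deposited table (95% interval 1.55-fold to 1.87-fold higher, DESeq2 adjusted p = 4.11e-26). Ppib stood at 1257 per kb over both groups, against 212.8 per kb for Lepre1 and Crtap in sum, and the implied ratio was about 4.75 in control and 6.88 in sATF6-KI. The lower bound of Ppib lies above the upper bounds of Lepre1 and Crtap, and the difference between the 3 genes was not tested.

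Fkbp10 encodes FKBP65, a prolyl isomerase that acts on procollagen and on LH2. Fkbp10 (chromosome 11 from 100415697 to 100424824, plus strand, GRCm38) was at -0.08 ± 0.13 on the log2 scale by the authors' deposited table, 0.789 to 1.14 times control, with a DESeq2 adjusted p = 0.873. P3h4, written Leprel4 in the table and a partner of lysyl hydroxylase 1, lies 861 bases from it on the opposite strand and was at -0.04 ± 0.12 on the log2 scale by the authors' deposited table. Other isomerases of the same family passed: Fkbp14 was 1.44-fold higher and Fkbp7 1.71-fold higher by the authors' deposited table. Fkbp9, at 0.03 ± 0.08 on the log2 scale by the authors' deposited table, did not.

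**Figure D3:**
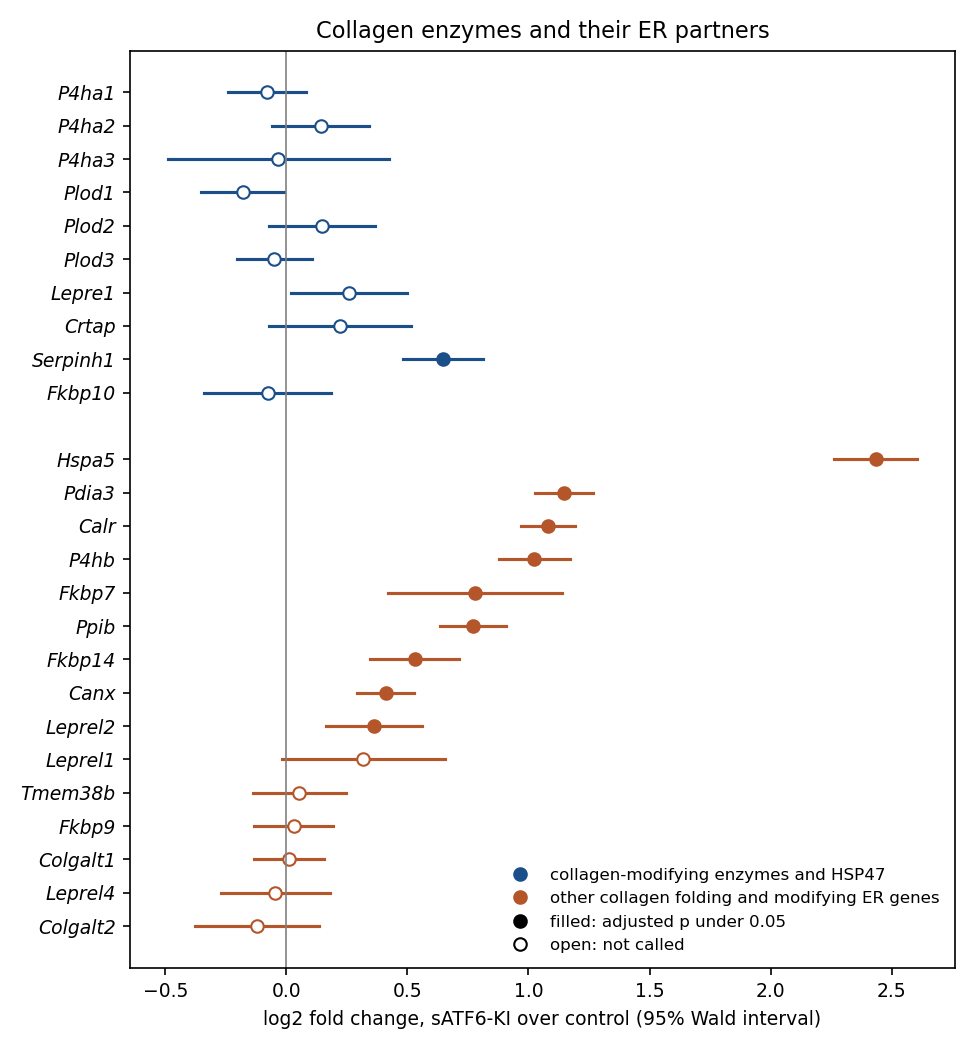
Log2 fold change of sATF6-KI over control with its 95% Wald interval for the 10 collagen-modifying genes (blue) and 15 other collagen folding and modifying genes of the ER (orange), filled where the authors' adjusted p was under 0.05. Serpinh1 at 0.65 is the filled point among the 10, and 9 of the 15 others are filled, all to the right of 0.

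A missed threshold leaves room for differences that these data did not call. Any gene called here had an estimate at least 3.00 standard errors from 0. This bound is on the estimate, and a true difference of that size or somewhat larger can still be missed. At the errors of the 9 genes that were not called, that distance was 1.18-fold for Plod3, 1.19-fold for P4ha1, 1.20-fold for Plod1, 1.24-fold for P4ha2, 1.26-fold for Plod2, 1.29-fold for Lepre1, 1.32-fold for Fkbp10, 1.36-fold for Crtap and 1.63-fold for P4ha3. For 7 of the 9 the whole 95% interval lay below 1.40-fold, the lower bound of Serpinh1. Lepre1 and Crtap, with upper bounds of 1.41-fold and 1.43-fold, were the other 2. The share of all genes with an interval below 1.40-fold was not counted, so 7 of 9 cannot be called particular to these genes.

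Some genes share their position with another transcript. Crtap, Fkbp10, Plod2 and Plod3 each overlap an annotated gene on the opposite strand, and Plod3 also overlaps a microRNA gene on its own strand. Of these partners Nt5c3b, which overlaps Fkbp10, was at 0.09 ± 0.09 on the log2 scale by the authors' deposited table, and Znhit1, which overlaps Plod3, was at -0.09 ± 0.08. 4930520O04Rik, a noncoding gene that overlaps Crtap, was at 0.33 ± 0.29 on the log2 scale by the authors' deposited table, with the same sign as Crtap. The library kit keeps strand, per the labels' protocols, but whether the counting used strand is not given in the labels. Values of these 4 genes are uncertain to that extent.

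**Figure D4:**
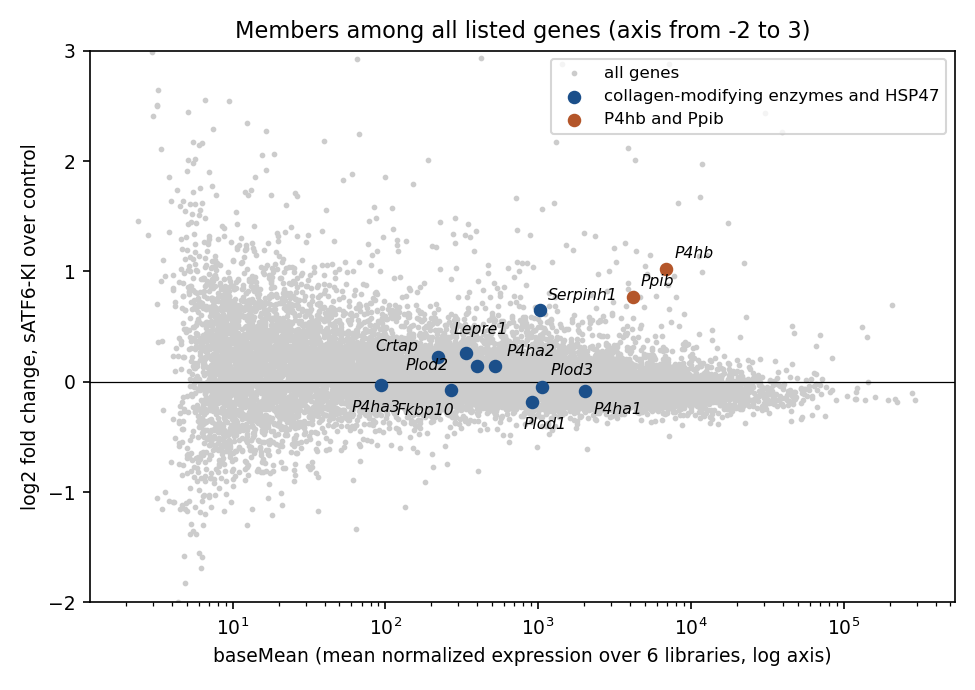
Log2 fold change of sATF6-KI over control against baseMean (log axis) for all 17385 genes (grey, 19 beyond the axis), with the 10 collagen-modifying genes in blue and P4hb and Ppib in orange. Serpinh1 is at 0.65, Ppib at 0.77 and P4hb at 1.02, and the other 9 lie between -0.18 and 0.26.

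The rest of the pathway was described by lists of genes, as counts beside the 5.34% of all genes called. In these lists rose and fell mean called higher and called lower. By sign alone, called or not, 8910 of the 17385 genes lay above control. Of 15 other collagen folding and modifying genes of the ER, 9 rose and none fell by the authors' deposited table, with a median log2 fold change of 0.41. Of the 9, Hspa5 at 5.41-fold, Pdia3 at 2.22-fold, Calr at 2.11-fold and Canx at 1.33-fold by the authors' deposited table are general ER chaperones or folding enzymes with many clients. Without these 4, a choice made after their values were seen, 5 of 11 rose and the median was 0.32. The 5 were P4hb, Fkbp7, Ppib, Fkbp14 and Leprel2. P4hb and Ppib, kept among the 11, also have many other clients. Leaving them out as well, Fkbp7, Fkbp14 and Leprel2 rose, and Leprel1, Tmem38b, Fkbp9, Colgalt1, Leprel4 and Colgalt2 were not called. Leprel2 (P3h3), a relative of prolyl 3-hydroxylase 1, was 1.29-fold higher by the authors' deposited table. The collagen galactosyltransferases, which add the first sugar to hydroxylysine, were not called: Colgalt1 was at 0.01 ± 0.07 and Colgalt2 at -0.12 ± 0.13 on the log2 scale by the authors' deposited table. Leprel1 (P3h2), at 0.32 ± 0.17, and Tmem38b, an ER potassium channel, at 0.05 ± 0.10 by the authors' deposited table, were not called either.

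Of 15 genes of collagen export from the ER, 1 rose and none fell by the authors' deposited table, with a median log2 fold change of -0.05. It was Creb3l2, an ER membrane transcription factor of the same cleaved type as ATF6 that is needed for collagen secretion by mouse chondrocytes, at 1.49-fold by the authors' deposited table. Mia3 (TANGO1), which loads procollagen at ER exit sites, was at 0.16 ± 0.07 on the log2 scale by the authors' deposited table (DESeq2 adjusted p = 0.166). Of 17 genes of extracellular collagen processing and crosslinking, 1 rose and none fell by the authors' deposited table, with a median of 0.22. It was Pcolce, an enhancer of procollagen C-proteinase, at 1.31-fold by the authors' deposited table. Loxl1, a lysyl oxidase relative, was at 0.38 ± 0.15 on the log2 scale by the authors' deposited table (DESeq2 adjusted p = 0.145).

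Collagen chains are the substrates of these 10 proteins. Of 43 measured chains 16 rose and 1 fell by the authors' deposited table, with a median log2 fold change of 0.45. By sign alone 40 of the 43 lay above control. The 16 were Col17a1, Col4a4, Col4a3, Col7a1, Col8a1, Col11a1, Col3a1, Col20a1, Col9a3, Col16a1, Col9a2, Col23a1, Col18a1, Col1a1, Col5a1 and Col11a2, from 1.85-fold for Col17a1 down to 1.27-fold for Col11a2 by the authors' deposited table. They span fibrillar, basement membrane and transmembrane collagens. Col6a4, a chain of the collagen VI family, was 2.20-fold lower by the authors' deposited table. The difference between the chains and the enzymes was not tested.

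Other users of the same chemistry, and genes induced by low oxygen, were described because prolyl 4-hydroxylases and lysyl hydroxylases need iron, oxygen and 2-oxoglutarate, and because P4ha1, P4ha2 and Plod2 are known hypoxia targets. Of 18 dioxygenases outside collagen, 2 rose and none fell by the authors' deposited table, with a median log2 fold change of -0.00596. They were the DNA demethylase Tet1 at 1.29-fold and the histone demethylase Kdm6b at 1.21-fold by the authors' deposited table. Of 16 hypoxia induced genes, none rose and 1 fell by the authors' deposited table, with a median of 0.02. It was Ldha, lactate dehydrogenase A, at 1.28-fold lower by the authors' deposited table.

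Serpinh1 was set beside markers of cells that make collagen and of choroid plexus. Of 15 markers of fibroblasts and meninges, 7 rose and none fell by the authors' deposited table, with a median log2 fold change of 0.47 and baseMeans from 179 to 8963. The 7 were Slc22a6, Igf2, Bmp6, Col3a1, Aldh1a2, Slc13a3 and Col1a1, from 1.86-fold for Slc22a6 to 1.37-fold for Col1a1 by the authors' deposited table, and Col1a1 and Col3a1 are also among the collagen chains. The fibroblast proteoglycans Dcn, at -0.07 ± 0.10, and Lum, at 0.11 ± 0.15 on the log2 scale by the authors' deposited table, were not called. Of 13 choroid plexus markers 12 rose and none fell by the authors' deposited table, with a median of 0.48 and baseMeans from 679 to 131970. They were Tmem72, Cldn2, F5, Kl, Ttr, Clic6, Otx2, Kcne2, Kcnj13, Sostdc1, Aqp1 and Folr1, from 2.10-fold for Tmem72 to 1.27-fold for Folr1 by the authors' deposited table. Their part in the value of Serpinh1 was not tested. In whole tissue, more cells of a type and more RNA per cell cannot be told apart, nor can fewer cells and less RNA.

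Of 16 markers of endothelial and mural cells 1 rose and none fell by the authors' deposited table, with a median log2 fold change of 0.14 and baseMeans from 144 to 4930. It was Pdgfrb, a receptor of pericytes, at 1.19-fold by the authors' deposited table. By sign alone 14 of these 16 markers lay above control. Of 14 markers of hippocampal glutamatergic neurons none rose and 3 fell by the authors' deposited table, with a median of -0.14. These were Itpka at 1.40-fold lower, Crym at 1.21-fold lower and Zbtb18 at 1.18-fold lower by the authors' deposited table. Only 1 of the 14 neuron markers lay above control by sign. Of 12 markers of astrocytes, microglia and oligodendrocytes none rose and 1 fell by the authors' deposited table, with a median of -0.08. It was the microglial receptor P2ry12, at 1.23-fold lower by the authors' deposited table. Of these 12 markers 1 lay above control by sign. Where a list above had no call in a direction, DESeq2 gave no gene at an unadjusted p under 0.05 in that direction either, except 1 dioxygenase lower and 2 hypoxia induced genes higher.

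**Figure D5:**
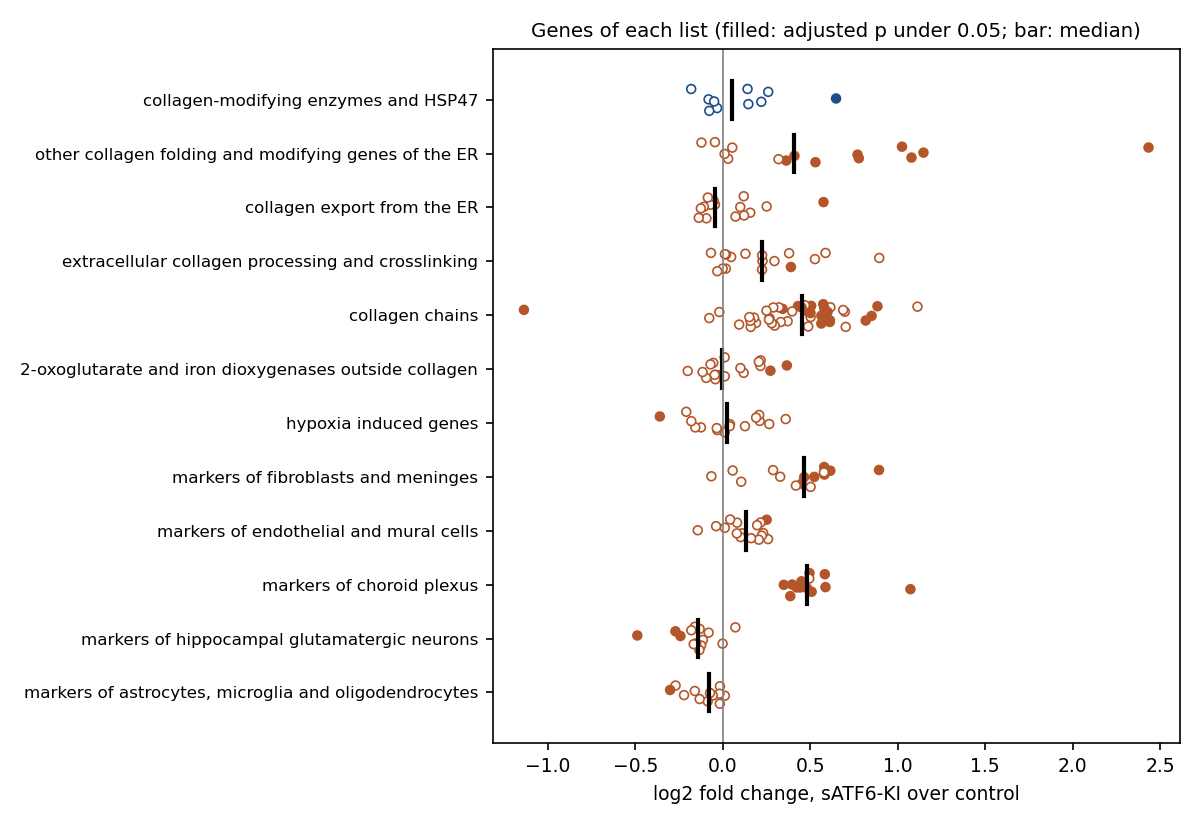
Log2 fold change of every measured gene of the 10 collagen-modifying genes (blue) and of 11 further lists (orange), filled where the authors' adjusted p was under 0.05, with the median of each list as a black bar. The 10 genes have a median of 0.05, and the 11 lists range from -0.14 for hippocampal glutamatergic neuron markers to 0.48 for choroid plexus markers, with collagen chains at 0.45. Differences between lists were not tested.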

How the data were processed

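The submitters' processing notes name DESeq2, HTSeq, STAR, cutadapt and Trim Galore, without roles or versions. Not given in the sources used here are the genome build, annotation and low-count filter. Per the file headers, the authors deposited for each gene a baseMean (a mean normalized expression signal), a log2 fold change, the Wald statistic (a score with no fixed range), a p-value and its FDR adjusted form. The 6 columns per library match no sample label and were not used, so edgeR was not run and the authors' comparison is the main test.

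The deposited p-value matched the Wald statistic within 2.89e-15. The deposited error did not: the fold change over the statistic, the Wald standard error used here, had a median of 1.21 times the deposited error. The 95% intervals are from it. The adjustment of p-values and the intervals were run on simulated statistics drawn with these same errors. No counts were simulated, so this checks the arithmetic and cannot show that the intervals hold for these data. Gene positions and exon lengths came from GENCODE M21 (GRCm38), which matched 17166 of 17385 gene IDs and all 10 members. Promoters came from RefSeq (GRCm38.p6), 8 of the 10 by symbol. Levels implied for each group take the fold change as the ratio of the group means.

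Members, gene lists and searched motifs were chosen with earlier results of these data known. Beside the members, the text names each list's called genes, P4hb and Ppib; Camk2a, Slc17a7, Mia3, Loxl1, Dcn, Lum, neighbouring genes, transgene parts and uncalled genes of the ER list were chosen after their values were seen. Alternatives were other thresholds, a fold minimum, protein-coding genes alone and a baseMean of at least 10. Work used scipy 1.17.1, numpy 2.4.6, pandas 2.3.3 and, for plots, matplotlib 3.10.9 under Python 3.11.15.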

Additional observations from a re-analysis of the deposited data

How the results depend on the processing

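Serpinh1 was called, and the other 9 collagen-modifying genes were not, under all 6 alternatives: adjusted p thresholds of 0.01 and 0.1, Bonferroni, a minimum fold change of 1.5, protein-coding genes alone and a baseMean of at least 10. Over these the adjusted p of Serpinh1 ran from 2.70e-12 to 2.93e-10, and the lowest of any other of the 10 was 0.235, for Lepre1. All 6 reuse the deposited p-values, and the settings of 0.01, Bonferroni and minimum fold change can only remove calls. Counts over the whole series moved as the call tightens or loosens. Of 928 called genes, a threshold of 0.01 left 514 (379 higher, 135 lower), Bonferroni 268 (234 higher, 34 lower) and the fold minimum 217 (206 higher, 11 lower), while a threshold of 0.1 raised the lower count from 336 to 529. Of the 53 other named genes, 17 lost their call at 0.01, 32 by Bonferroni and 36 with the fold minimum, and none with the other 3 settings. Counts of lists moved too. Collagen chains higher were 16 in the report, 9 at 0.01 and 6 both by Bonferroni and with the fold minimum. Fibroblast and meninges markers higher went from 7 to 0 by Bonferroni and 2 with the fold minimum, and choroid plexus markers from 12 to 5 and 2. The 9 other collagen folding and modifying genes stayed within 1.5 times. Of all 22 list counts, 4 moved beyond 1.5 times at 0.01, 2 at 0.1, 9 by Bonferroni and 10 with the fold minimum, and none with the other 2 settings. No paired analysis was possible because the library columns carry names that match no numbered sample. Fits of counts, pseudocounts and fits without single replicates were not run for the same reason. With 1 deposited comparison and no depth per sample, precision is that of the authors' test alone.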
